A study of Mus musculus with 12 samples.

Results

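The 10 genes described here encode chemokines that draw neutrophils into tissue and receptors or secreted proteins that mark neutrophils. They were chosen by symbol from a named set, and each of the 10 was found among the 24532 genes of the table. Cxcl1, Cxcl2, Cxcl3 and Cxcl5 encode ligands, Cxcr2 and Csf3r encode receptors for chemokines and for a granulocyte growth factor, and Trem1, Clec4d, Clec4e and Retnlg encode innate receptors and a secreted protein. All 10 were among the 16466 genes that passed a filter on low counts. By the ethanol libraries alone only 5 would have passed (Cxcl1, Cxcr2, Csf3r, Clec4d and Clec4e). The other 5 (Cxcl2, Cxcl3, Cxcl5, Trem1 and Retnlg) entered the test through their MC903 libraries, where they were high. This favours a response to MC903 in advance, so a count over all 10 carries that selection.

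Ear skin of C57BL/6 mice was profiled by bulk RNA sequencing, with 3 libraries in each of 4 groups. Mice were either germ-free (GF) or specific-pathogen-free (SPF), and the skin received MC903 or its vehicle ethanol. MC903 (calcipotriol) is an analogue of vitamin D that inflames mouse skin in a way that resembles atopic dermatitis, and the study set out to learn what the microbiota changes in that inflammation. SPF libraries carry the numbers 1, 2 and 3 and GF libraries 1, 4 and 5, each once per treatment. No allele, transgene or antibiotic is named for any group, age and sex are not stated, and the labels do not make clear how many applications were made per day. The strain label of GF MC903 4, GF ethanol 5 and GF MC903 5 ends in 7, 8 and 9 in place of 6, rising by 1 from sample to sample. Whether the libraries of a group are separate mice is not stated, so the spread behind each p-value is that between libraries and may be technical.

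Neutrophils leave the blood along gradients of CXC chemokines that carry the ELR motif, and in the mouse the receptor CXCR2 reads CXCL1, CXCL2, CXCL3 and CXCL5. Keratinocytes, fibroblasts, endothelium and macrophages can all make these ligands, and IL-1, IL-17 and TNF induce them, largely through NF-kB. G-CSF, read by the product of Csf3r, drives the production and release of neutrophils from bone marrow.

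The 4 ligand genes lie within 147 kb of chromosome 5 (RefSeq, GRCm38.p6, the same build as mm10). Cxcl5 lies at 90759298 to 90761625, Cxcl3 at 90786101 to 90788093, Cxcl1 at 90891245 to 90893121 and Cxcl2 at 90903899 to 90905938. They are related in sequence, and how reads that match more than 1 of them were counted is not given in the sources used here. The 120 bases before the start sites of Cxcl1 (chr5:90891125-90891244), Cxcl2 (chr5:90903779-90903898) and Cxcl3 (chr5:90785981-90786100) are shown because these 3 genes share the motif in capitals. All 3 are on the plus strand of GRCm38.p6, credited to RefSeq, and the capitals mark matches to an NF-kB motif (GGGA, any 2 bases, then TTCC).
Cxcl1: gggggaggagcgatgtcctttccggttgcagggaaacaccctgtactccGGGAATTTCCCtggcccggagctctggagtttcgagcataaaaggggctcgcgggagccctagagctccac
Cxcl2: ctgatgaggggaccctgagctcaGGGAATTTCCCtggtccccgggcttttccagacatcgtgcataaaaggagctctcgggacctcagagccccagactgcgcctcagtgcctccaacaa
Cxcl3: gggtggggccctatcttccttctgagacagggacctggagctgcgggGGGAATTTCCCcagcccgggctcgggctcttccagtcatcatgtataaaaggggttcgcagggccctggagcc
In each of these the forward match overlaps a match on the reverse strand, and together they form the same 11 capitals. Counted from the start site, the forward match begins at -71 in Cxcl1, -97 in Cxcl2 and -73 in Cxcl3. RefSeq promoter windows of 300 bases were matched for 9 of the 10 genes. Cxcl5 had no window, so whether it holds the motif was not searched. The NF-kB motif, searched on both strands, was in 4 of these 9 (the 3 genes above and Csf3r, on the reverse strand) and in 1.47% of 32851 promoters of the same length. The 3 ligand genes are related in sequence and are not separate cases in this count. TGANTCA (AP-1) was in 0 of 9 and in 7.81% of promoters, and a spaced repeat of the kind read by the vitamin D receptor (GNTCA, any 4 bases, GNTCA) was in 0 of 9 and in 0.7%. A match is a description of letters, not of binding.

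The libraries held between 36358294 and 48225425 estimated counts in total. Levels are given as CPM (counts relative to TMM-scaled library size) as mean ± SD over 3 libraries, or as deposited FPKM where genes are compared with each other. A gene is called where edgeR's quasi-likelihood test gave an adjusted p under 0.05 over the 16466 genes. Mean TMM factors were 1.23 and 1.19 with ethanol and 0.825 and 0.831 with MC903. On library totals alone the median gene shifted by -0.576 (log2) in the SPF response and by -0.511 in the GF response, and the share of calls that were higher went from 47.4% to 23.6% and from 48.8% to 22.4%. Fold changes between treatments are therefore relative to this scaling, and rises smaller than the shift can turn sign without it. Of the 10 genes, Csf3r in SPF skin did so.

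The first comparison asks what MC903 did in skin with a normal microbiota. In SPF skin 9 of the 10 genes rose and none fell (0 also at an unadjusted p under 0.05, with DESeq2 and with limma voom), against 73.8% of all tested genes called, 35% higher and 38.8% lower. Among the 5 genes that the ethanol libraries alone would have admitted, 4 rose, and their median log2 change was 2.59, against -0.10 over all tested genes. In bulk tissue more cells of a type and more RNA per cell cannot be told apart.

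Cxcl5, the ligand made largely by epithelial cells, showed 0.114, 0.351 and 0.148 CPM in SPF ethanol libraries 1, 2 and 3 and 5.99, 2.55 and 6.81 CPM in SPF MC903 libraries 1, 2 and 3. Every MC903 library lay above every ethanol library, with library 2 the lowest of the 3. Its mean went from 0.204 ± 0.128 to 5.12 ± 2.26 CPM (n = 3 each), a log2 change of 4.65 (SE 0.53, adjusted p = 4.6e-06). Without SPF ethanol 2, the highest ethanol library, it was 5.25.

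Cxcl1, also known as KC, showed 0.456, 0.619 and 0.0738 CPM with ethanol and 2.05, 2.19 and 2.67 CPM with MC903. SPF ethanol 3, with 4 counts, was the low library, and the treatments did not overlap. The log2 change was 2.59 (SE 0.46, adjusted p = 0.00024).

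Cxcl2, also known as MIP-2, was close to absent with ethanol, with 2, 0 and 0 counts, and had 22, 52 and 29 counts with MC903. Scaled for depth, the pooled counts had a ratio of 73.2 with a counting interval of 19.8 to 612, and Cxcl2 was called higher (adjusted p = 6.9e-05). Cxcl3 had 0 counts in each ethanol library and 8, 14 and 13 with MC903. Set against a floor of 3 counts over the ethanol group it was at least 17.0-fold higher (adjusted p = 0.00087). Both genes were thus read in every MC903 library, at 8 to 52 counts.

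Cxcr2, the receptor of these ligands, stood at 4.50, 3.20 and 3.98 CPM with ethanol and 10.9, 9.15 and 9.97 CPM with MC903. The groups were far apart for their spread, with a log2 change of 1.36 (SE 0.21, adjusted p = 7.4e-05). Csf3r, the G-CSF receptor, was the 1 gene not called. It had 1.60, 0.949 and 1.12 CPM with ethanol and 2.15, 1.39 and 1.68 CPM with MC903, and the groups overlapped. Its log2 change was 0.51 with a 95% interval of -0.05 to 1.06 (adjusted p = 0.09). On library totals alone it was -0.071 (adjusted p = 0.81), and without SPF ethanol 1 it was 0.74 and passed (adjusted p = 0.027).

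The innate receptors rose with the ligands. Trem1, an activating receptor of neutrophils and monocytes that amplifies inflammation, had 0, 3 and 11 counts with ethanol and 40, 44 and 61 with MC903, a log2 change of 3.89 (SE 0.73, adjusted p = 0.00038). Without SPF ethanol 3, which held 11 of the ethanol counts, it was 5.39. Clec4e, which encodes Mincle, a C-type lectin for mycobacterial and fungal glycolipids, went from 0.133, 0.330 and 0.203 to 1.85, 1.54 and 2.80 CPM. That is a log2 change of 3.20 (SE 0.50, adjusted p = 7.4e-05). Clec4d, which encodes the partner lectin MCL, went from 0.703, 0.289 and 0.553 to 3.30, 2.70 and 3.69 CPM, a log2 change of 2.63 (SE 0.29, adjusted p = 3.8e-06). None of these 3 overlapped between treatments. Clec4d and Clec4e are neighbours on chromosome 6, at 123262107 to 123275268 and 123281789 to 123289871.

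Retnlg, a secreted resistin-like protein known from neutrophils, was the weakest call. It had 3, 4 and 4 counts with ethanol and 8, 12 and 6 with MC903, a log2 change of 1.70 (SE 0.72, adjusted p = 0.049). The groups did not overlap, but the call was lost in 14 of the alternatives run. These include limma voom (adjusted p = 0.087), the fit without a filter (0.082) and 10 of the 12 fits without 1 library, where the adjusted p lay between 0.05 and 0.15. Of those 12 fits, the 2 without GF ethanol 1 or GF ethanol 4 held the call.

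**Figure D1:**
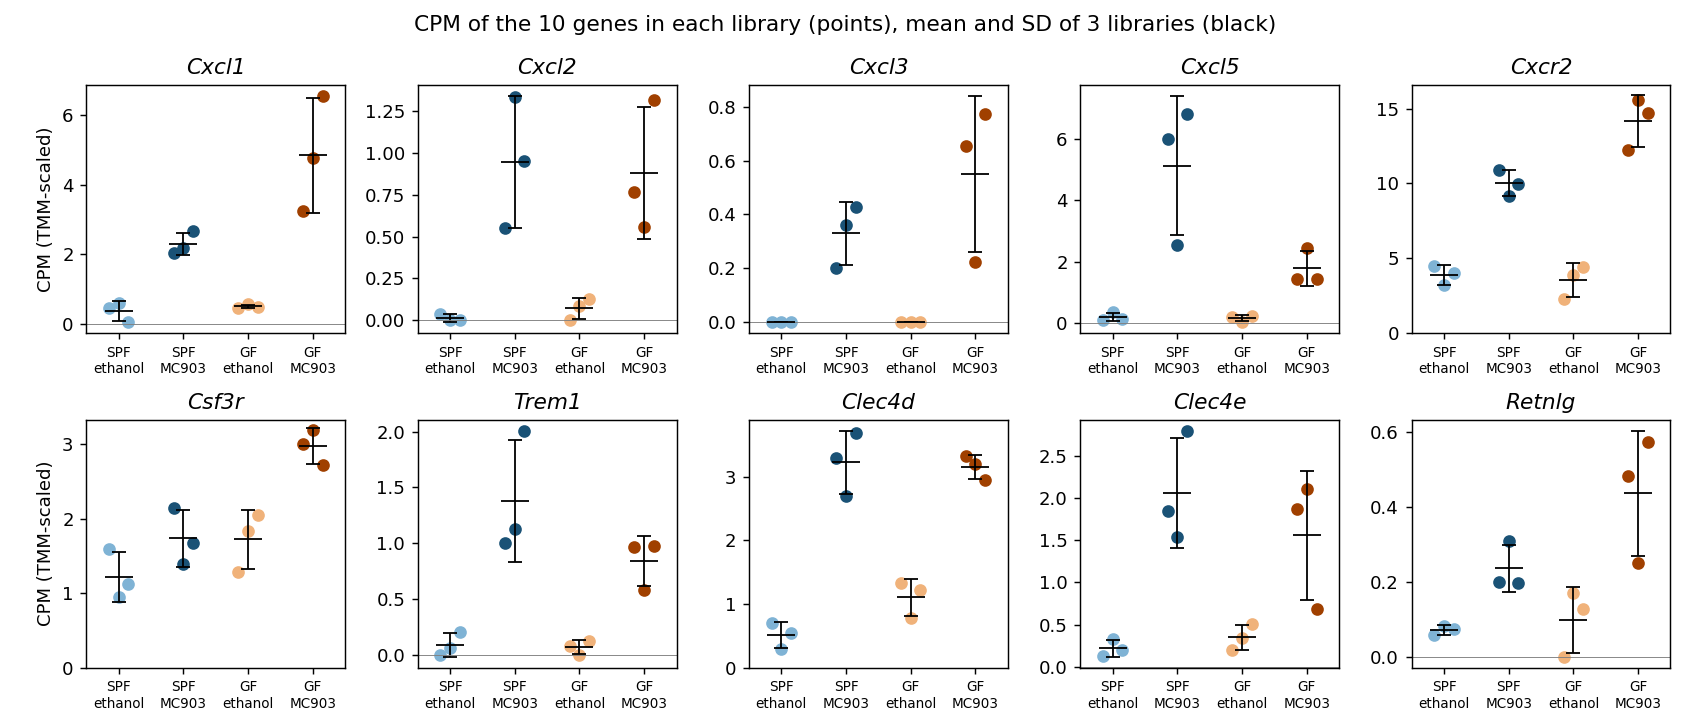
CPM of each of the 10 genes (y axis, own scale per panel, starting near 0) in the 12 libraries, by housing and treatment (x axis). Points are libraries, black bars mean and SD of 3. Cxcl5 with MC903 reaches 2.55 to 6.81 CPM in SPF skin and 1.43 to 2.45 in GF skin, while Cxcl1 stands at 2.05 to 2.67 and 3.24 to 6.53.

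The same question in germ-free skin gave a rise in each of the 10 genes, with 0 falling (0 also at an unadjusted p under 0.05, with DESeq2 and with limma voom), against 68.5% of all tested genes called, 33.4% higher and 35.1% lower. All 10 were without overlap between treatments, against 35.6% of tested genes that lay higher and 38.4% that lay lower without overlap. In SPF skin this held for 9, against 35.8% higher and 40.9% lower. Both counts carry the selection of the genes admitted through their MC903 libraries. The 5 genes that the ethanol libraries alone would have admitted all rose in GF skin without overlap. Their median log2 change was 2.01, against -0.07 over all tested genes. In SPF skin Csf3r was the one of these 5 that overlapped.

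Per length, Cxcl1 was the highest of the ligands in GF MC903 skin, with a mean FPKM of 4.12. In CPM it stood at 0.481, 0.570 and 0.504 CPM in GF ethanol 1, 4 and 5 and at 3.24, 4.75 and 6.53 CPM in GF MC903 1, 4 and 5. The ethanol libraries were close together and the MC903 libraries spread widely, with a log2 change of 3.22 (SE 0.44, adjusted p = 3.5e-05). Cxcl5 went from 0.201, 0.0422 and 0.231 to 1.45, 2.45 and 1.43 CPM, a log2 change of 3.46 (SE 0.56, adjusted p = 0.00014).

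Cxcl2 had 0, 4 and 6 counts with ethanol and 27, 20 and 46 with MC903, a log2 change of 3.61 (SE 0.72, adjusted p = 0.00069), or 4.32 without GF ethanol 5. Cxcl3 was again at 0 in each ethanol library and had 23, 8 and 27 counts with MC903, at least 26.5-fold above the floor of 3 counts over the ethanol group (adjusted p = 0.00038). GF MC903 4 was the lowest of its group for both.

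Cxcr2 went from 2.25, 3.87 and 4.43 to 12.2, 15.6 and 14.7 CPM, a log2 change of 2.01 (SE 0.21, adjusted p = 3.7e-06). Csf3r went from 1.28, 1.84 and 2.06 to 3.01, 3.20 and 2.72 CPM, which did not overlap. Its log2 change was 0.79 (SE 0.25, adjusted p = 0.013), and on library totals alone it was 0.28 and not called (adjusted p = 0.33). Without GF ethanol 1, the lowest library, it was 0.61 (adjusted p = 0.058).

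Trem1 had 4, 0 and 6 counts with ethanol and 34, 21 and 34 with MC903, a log2 change of 3.55 (SE 0.79, adjusted p = 0.0015), or 4.26 without GF ethanol 5. Clec4d went from 1.32, 0.782 and 1.22 to 3.32, 3.20 and 2.95 CPM, a log2 change of 1.51 (SE 0.27, adjusted p = 0.00032). Clec4e went from 0.201, 0.338 and 0.504 to 1.87, 2.11 and 0.688 CPM, a log2 change of 2.16 (SE 0.48, adjusted p = 0.0014), with GF MC903 5 far below the other two. Retnlg had 0, 8 and 6 counts with ethanol and 17, 9 and 20 with MC903, a log2 change of 2.13 (SE 0.65, adjusted p = 0.011). It was 1.54 without GF ethanol 1 and 2.77 without GF ethanol 4, and called in both.

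**Figure D2:**
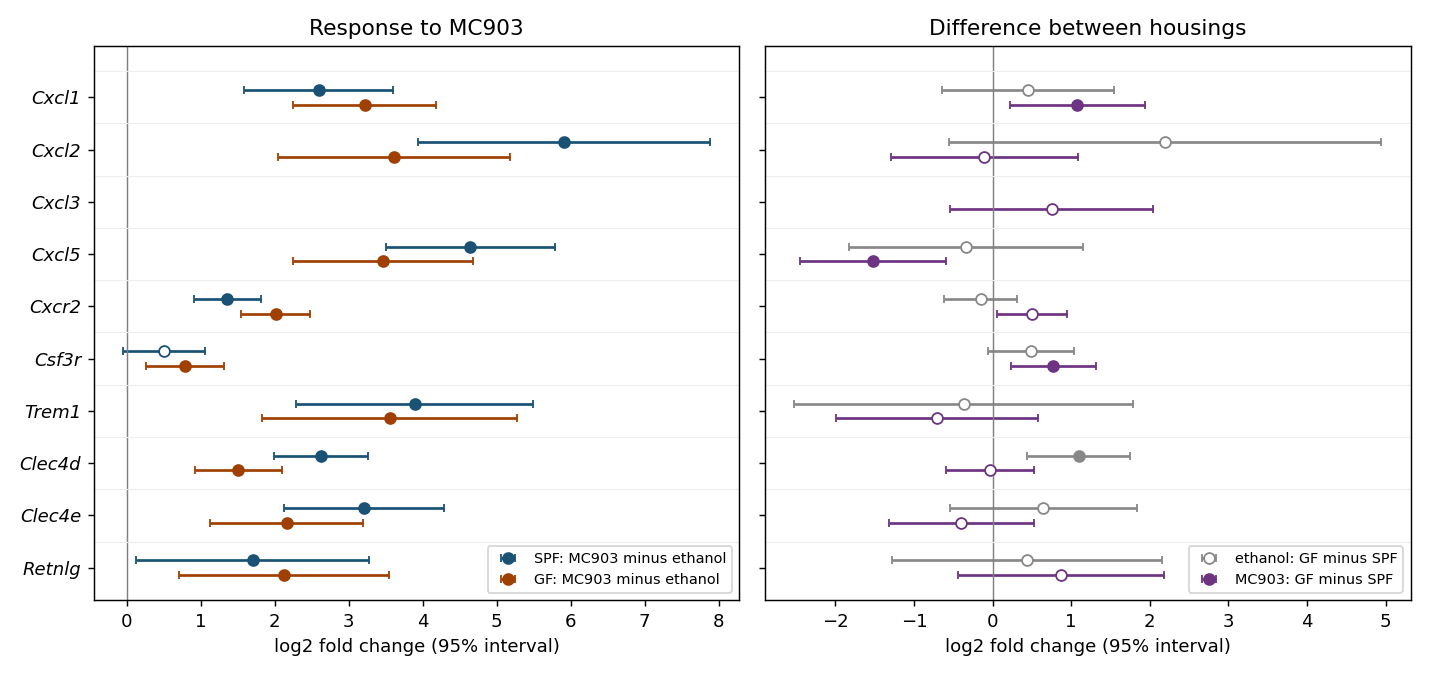
Log2 fold changes with 95% intervals (x axes) for each gene (y axis), filled where called at an adjusted p under 0.05. The left panel holds the MC903 responses in SPF and GF skin, the right panel GF minus SPF under each treatment. Of the responses only Csf3r in SPF skin (0.51) is open, and Cxcl1 (1.08) and Cxcl5 (-1.52) sit on opposite sides of 0 with MC903. No value is drawn for Cxcl3 where a group is at 0.

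Whether the response itself depended on housing was asked by the difference between the responses, GF minus SPF. Of the 10 genes 0 were called, against 17% of all tested genes (7.75% higher and 9.26% lower). At an unadjusted p under 0.05 there was 1 gene with a larger response in GF skin and 1 with a smaller one, DESeq2 called 0 and 1, and limma voom 0 and 0. The gene with the smaller response was Clec4d, with a difference of -1.12 (95% interval -1.98 to -0.26, adjusted p = 0.072). DESeq2 gave -1.15 for it and called it (adjusted p = 0.021). It also passed without SPF ethanol 1 (-1.41, adjusted p = 0.041) and without GF ethanol 4 (-1.32, adjusted p = 0.047). The gene with the larger response was Cxcr2, with 0.65 (0.01 to 1.29, adjusted p = 0.16).

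For Cxcl5 the response was smaller in GF skin by 1.18 on the log2 scale, with an interval from -2.98 to 0.61 (adjusted p = 0.37). For Cxcl1 the difference was 0.62, from -0.78 to 2.02 (adjusted p = 0.56), and for Cxcl2 -2.30, from -5.29 to 0.69 (adjusted p = 0.29). Each of these 3 intervals includes 0 and also differences of over 1.5 times, so equal responses are not shown. The Cxcl2 value rests on 2 counts in SPF ethanol 1 and was -4.71 without that library and -1.59 without GF ethanol 5. The Cxcl5 value was -1.79 without SPF ethanol 2. The remaining adjusted p-values were 0.65 for Csf3r, 0.89 for Trem1, 0.34 for Clec4e and 0.83 for Retnlg. Cxcl3 has no value here because both ethanol groups were at 0.

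Between housings with ethanol, 1 of the 10 genes was called higher in GF skin and 0 lower (0 also at an unadjusted p under 0.05, with DESeq2 and with limma voom), against 11.6% of tested genes called higher and 10.3% lower. It was Clec4d, at 0.703, 0.289 and 0.553 CPM in SPF ethanol libraries and 1.32, 0.782 and 1.22 CPM in GF ethanol libraries. These did not overlap, as for 21.8% of tested genes, and the log2 difference was 1.09 (SE 0.30, adjusted p = 0.022). The call was lost without SPF ethanol 2 (0.82, adjusted p = 0.066), SPF ethanol 3 (1.15, 0.054), GF ethanol 1 (0.95, 0.075) or GF ethanol 5 (1.02, 0.058), and in a fit of the 2 groups alone (adjusted p = 0.052).

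The ligands were low in both ethanol groups. Cxcl1 differed by 0.45 (adjusted p = 0.55) and Cxcl5 by -0.34 (adjusted p = 0.76), and the sign of either turned without 1 library. Cxcl2 had 2 counts in all in SPF and 10 in GF ethanol libraries, a ratio of 5.36 with a counting interval of 1.14 to 50.3 that leaves out the spread between libraries (adjusted p = 0.23). Cxcr2 differed by -0.15 (adjusted p = 0.65) and Csf3r by 0.49 (adjusted p = 0.18).

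With MC903 the housings differed in opposite ways for Cxcl5 and Cxcl1, the 2 ligands with the highest FPKM. Cxcl5 was lower in GF skin, at 1.45, 2.45 and 1.43 CPM against 5.99, 2.55 and 6.81 CPM in SPF skin. The groups did not overlap, though GF MC903 4 and SPF MC903 2 nearly met. The log2 difference was -1.52 (SE 0.43, adjusted p = 0.013), and without SPF MC903 3 it was -1.26 (adjusted p = 0.06).

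Cxcl1 was higher in GF skin, at 3.24, 4.75 and 6.53 CPM against 2.05, 2.19 and 2.67 CPM, again without overlap. The log2 difference was 1.08 (SE 0.39, adjusted p = 0.044). This call stood at the threshold. It was lost in 9 of the 12 fits without 1 library, with adjusted p-values between 0.054 and 0.18 (the exceptions were SPF ethanol 2, SPF ethanol 3 and GF MC903 1), and without the filter on low counts (adjusted p = 0.052). The lowest difference, 0.80, was without GF MC903 5, the library with the most Cxcl1.

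Csf3r was also higher in GF skin, at 3.01, 3.20 and 2.72 CPM against 2.15, 1.39 and 1.68 CPM, a log2 difference of 0.77 (SE 0.25, adjusted p = 0.025). It was lost without SPF MC903 2 (0.63, adjusted p = 0.09), SPF MC903 3 (0.75, 0.07), GF MC903 1 (0.77, 0.059) or GF MC903 4 (0.72, 0.067). In all, 2 of the 10 genes were called higher and 1 lower, against 41.7% of tested genes called, 20.8% higher and 20.9% lower. Groups lay apart without overlap for 3 genes higher and 2 lower, against 25.4% and 25.2%, shares near the background.

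Cxcr2 was among the genes without overlap, at 12.2 to 15.6 CPM in GF and 9.15 to 10.9 CPM in SPF skin. Its log2 difference of 0.50 missed the threshold (adjusted p = 0.066) and passed it with DESeq2 (0.043), limma voom (0.034), a fit of the 2 groups alone (0.019) and without GF ethanol 1 (0.015). Trem1 was the other gene without overlap and not called, at 0.584 to 0.974 CPM in GF and 0.999 to 2.01 CPM in SPF skin (log2 difference -0.70, adjusted p = 0.37). Clec4d, higher in GF skin with ethanol, differed by -0.029 with MC903 (interval -0.59 to 0.53, adjusted p = 0.94). Cxcl2 differed by -0.11 (adjusted p = 0.89), Cxcl3 by 0.75 (0.32), Clec4e by -0.40 (0.49) and Retnlg by 0.87 (0.27).

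Per length, the make-up of the 4 ligands can be read from FPKM. Their summed FPKM was 0.200 to 1.004 in SPF ethanol and 0.737 to 0.862 in GF ethanol libraries. It was 4.24 to 6.68 in SPF MC903 and 4.52 to 7.88 in GF MC903 libraries. Deposited FPKM was not TMM-scaled here, so these sums compare treatments on another scale than CPM. Csf3r in SPF skin had a mean FPKM of 0.369 with ethanol and 0.352 with MC903, against 1.22 and 1.74 CPM. Cxcl1 made up 68.0 ± 18.6% of the sum with ethanol and 36.7 ± 5.19% with MC903 in SPF skin, and 78.2 ± 8.49% and 67.1 ± 5.69% in GF skin. Cxcl5 made up 45.0 ± 14.6% with MC903 in SPF skin and 14.9 ± 5.83% in GF skin (n = 3 each). Cxcl2 held 13.7 ± 8.02% and 10.6 ± 3.17% of the MC903 sums, and Cxcl3 4.69 ± 1.68% and 7.44 ± 4.23%.

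The log2 ratio of Cxcl1 to Cxcl5 FPKM, a measure chosen after the values were seen, was -0.76, 0.59 and -0.56 in SPF MC903 1, 2 and 3 and 1.96, 1.77 and 3.02 in GF MC903 1, 4 and 5. The groups did not overlap, and their means were -0.24 ± 0.73 and 2.25 ± 0.67. With ethanol the means were 1.40 ± 1.48 and 2.86 ± 1.45, and the libraries overlapped. Since the ratio joins 2 genes already seen to differ in opposite directions, it is given as a description with no test.

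**Figure D3:**
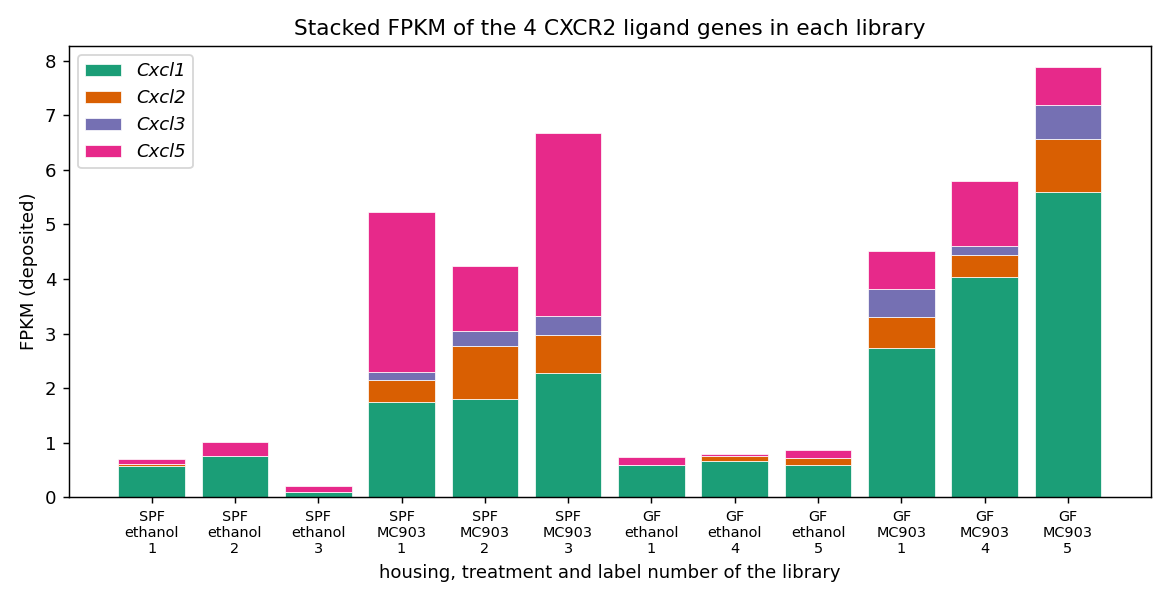
Deposited FPKM of the 4 ligand genes, stacked, in each of the 12 libraries (x axis: housing, treatment and label number; y axis: FPKM from 0). Bars of MC903 libraries reach 4.24 to 7.88, and Cxcl5 is the widest or second widest band in SPF MC903 libraries while Cxcl1 is the widest in all GF MC903 libraries.

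Cxcr2 had the highest mean FPKM of the 10 genes in 3 of the 4 groups, at 1.54 ± 0.285 (SPF ethanol), 2.66 ± 0.274 (SPF MC903) and 1.33 ± 0.418 (GF ethanol). In SPF MC903 skin it was followed by Cxcl5 at 2.50, Cxcl1 at 1.94 and Clec4d at 1.94, and neighbours in this order overlapped. In GF MC903 skin Cxcl1 led at 4.12 ± 1.43, overlapping Cxcr2 at 3.77 ± 0.464. Clec4d followed at 1.90 ± 0.110, apart from both neighbours, and Cxcl5 came next at 0.857 ± 0.279. The lowest genes were Cxcl3 with ethanol in either housing, listed at 0, then Cxcl3 at 0.249 in SPF MC903 and Trem1 at 0.233 in GF MC903 skin.

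The name neutrophil markers was checked against other neutrophil transcripts, since several of the 10 genes are also expressed by monocytes and macrophages. Ly6g, which defines mouse neutrophils, had 3 counts in all, in 1 of 12 libraries (GF MC903 5). Of 16 granule and nuclease genes, 5 did not pass the filter. These were Camp, Ltf, Elane, Ngp and Ly6g, with at most 32 counts summed over any group. The receptor Cxcr1 had 0, 0, 0 and 2 counts in SPF ethanol, SPF MC903, GF ethanol and GF MC903 libraries. Mpo, the myeloperoxidase gene, fell in SPF skin from 59 to 5 counts over the group (adjusted p = 0.019), and the protease genes Prtn3 and Ctsg were not called in either housing. As background, granule genes are transcribed mainly in precursors in bone marrow. Other genes of the same lists rose. Cd177, a neutrophil surface protein gene, went from 7 to 54 counts over the group in SPF and from 31 to 132 in GF skin (adjusted p = 0.0041 and 0.0054). Stfa2l1, a stefin gene, went from 3 to 365 and from 4 to 138 counts (adjusted p = 1.2e-06 and 2.4e-05). Ifitm6 rose by 5.82 and 3.05 and Chil3, which macrophages also express, by 2.88 and 2.44. Mmp8, the neutrophil collagenase gene, had 23 and 36 counts in SPF skin (adjusted p = 0.052) and 1 and 35 in GF skin (adjusted p = 9.6e-05). The neutrophil transcripts thus did not move as 1 group, and the 10 genes are named here by their symbols and give no count of cells.

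Of the 11 granule genes tested, 6 rose and 2 fell in SPF skin, and 7 rose and 1 fell in GF skin (5 and 3, then 7 and 3, on library totals alone). Over all tested genes 35% rose and 38.8% fell in SPF skin, and 33.4% rose and 35.1% fell in GF skin. This background applies to the response counts of every list below. The summed level of the 16 genes went from 48.1 to 57.0 CPM with ethanol to 263 to 417 CPM with MC903 in SPF skin, and from 55.7 to 64.3 to 195 to 244 CPM in GF skin. Most of this was Hp, haptoglobin, with log2 changes of 2.28 and 1.92, and Padi4, a histone-citrullinating enzyme, with 5.65 and 4.30 (adjusted p at most 4.4e-06). Lcn2, the iron-sequestering lipocalin that keratinocytes also make, rose by 1.91 and 2.35. Mmp9, gelatinase B, fell by 0.49 and by 0.67.

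Of 18 other mature neutrophil genes 15 were tested, and of these 9 rose and 2 fell in each housing (6 and 3 on library totals alone). Mrgpra2a, Mrgpra2b and Acod1 did not pass the filter. With MC903, Mrgpra2a and Mrgpra2b had 0 counts in both housings, and Acod1 had 9 in SPF and 25 in GF libraries. Il1r2, the decoy receptor for IL-1, fell by 1.64 in SPF and by 0.65 in GF skin, and Il1rn, the IL-1 receptor antagonist, rose by 0.71 and 0.74. Wfdc21 fell by 1.51 in SPF skin and was not called in GF skin (0.03), and G0s2, an inhibitor of lipolysis, was -0.18 in SPF skin and fell by 0.46 in GF skin. The summed level of this list did not separate the treatments in SPF skin, at 381 to 426 CPM with ethanol and 356 to 393 CPM with MC903, and stood at 412 to 438 and 457 to 488 CPM in GF skin. Of the 6 subunits of the phagocyte oxidase, 5 rose and 1 fell in each housing (3 and 1 on library totals alone). Cyba, the membrane partner of the catalytic subunit, rose by 0.99 and 1.28 and the GTPase gene Rac2 by 1.34 and 0.97. The one that fell was Cybb, the catalytic subunit, by 1.96 and by 1.04.

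Macrophage and monocyte genes mostly rose, with a median log2 change of 0.87 in SPF and 0.95 in GF skin. Of 12 tested, 11 rose and 1 fell in SPF skin, and 10 rose and 1 fell in GF skin (6 and 1, then 7 and 2, on library totals alone). Their summed level was 462 to 540 CPM with ethanol and 805 to 899 CPM with MC903 in SPF skin, and 558 to 601 and 919 to 1005 CPM in GF skin, with none of the 12 at 0. Keratinocyte genes summed to 23638 to 25909 CPM and 49819 to 61033 CPM in SPF skin, and to 27232 to 31718 and 62562 to 65350 CPM in GF skin. They did not all rise: of 6 tested, 3 rose and 2 fell in SPF skin, and 5 rose and 0 fell in GF skin. On library totals alone these counts were 3 and 3 in SPF skin and 3 and 1 in GF skin. Basophil and mast cell genes summed to 224 to 243 and 284 to 352 CPM in SPF skin, and to 252 to 288 and 357 to 392 CPM in GF skin. Of 8 tested, 5 rose and 1 fell in each housing (3 and 3 on library totals alone). The part of these cells in the levels of the 10 genes was not tested. Of 7 dendritic and Langerhans cell genes, 3 rose and 3 fell in SPF skin and 2 rose and 2 fell in GF skin. Their summed level, most of it Epcam, overlapped between treatments, while Ccr7 rose by 3.28 and 1.97 and Flt3 fell by 1.42 and by 1.36. Eosinophil genes summed to at most 2.95 CPM in any library, and only Ear2 of the 8 was tested. Fibroblast genes fell, 6 of 6 in each housing.

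**Figure D4:**
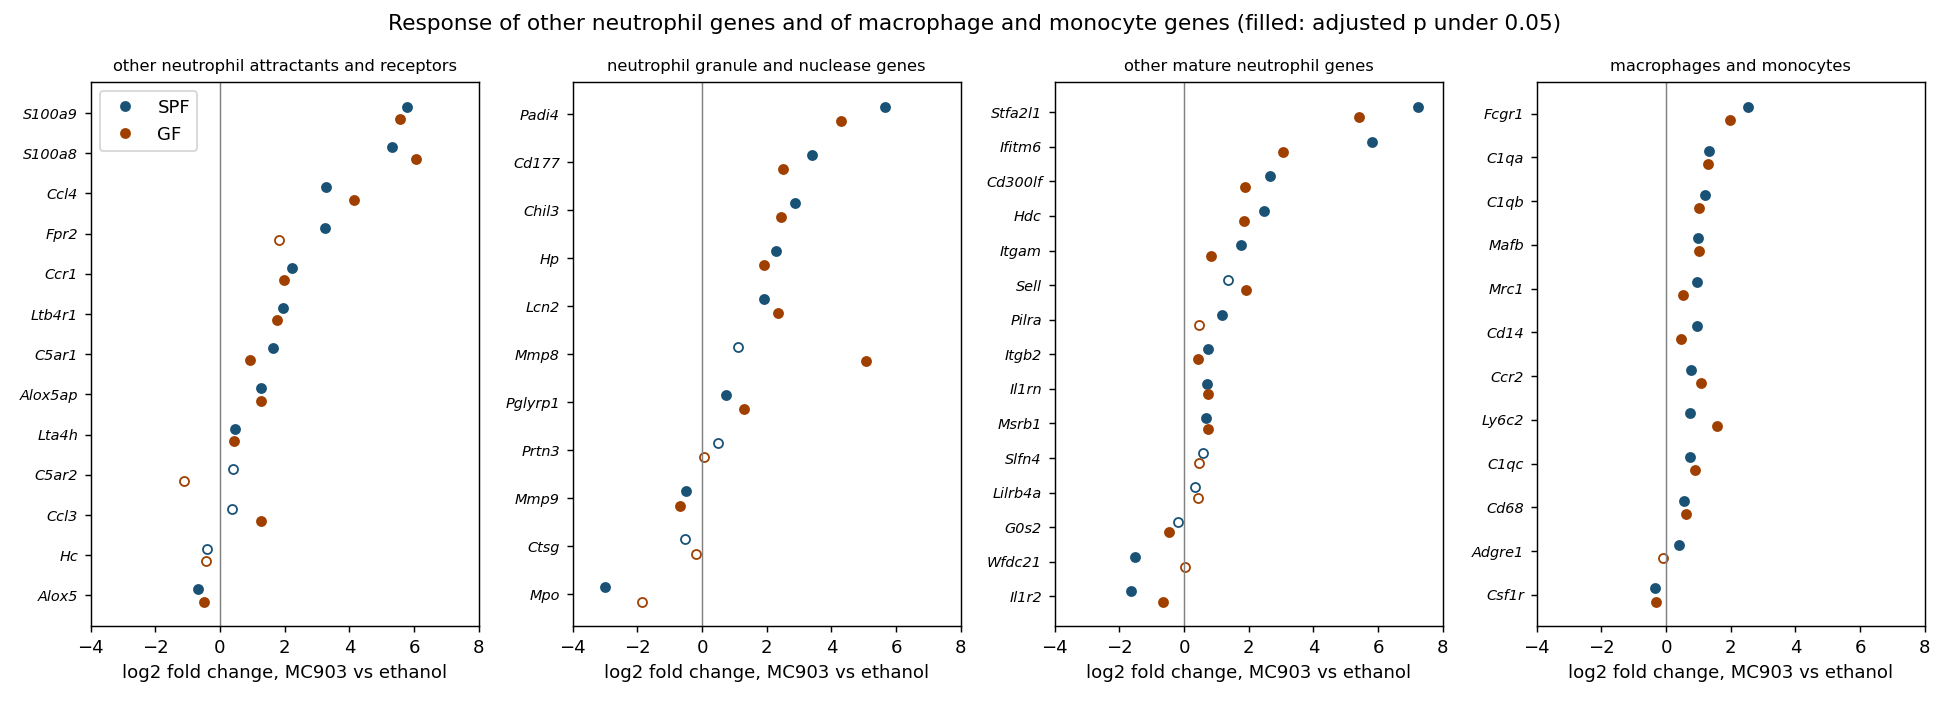
Log2 fold changes of MC903 against ethanol (x axes) in SPF and GF skin for the tested genes of 4 lists (y axes), filled at an adjusted p under 0.05. S100a8 and S100a9 lie above 5 in both housings, and in the macrophage list only Csf1r falls in both.

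Among other genes of the CXCR2 axis, 2 of 6 tested rose and 2 fell in each housing (on library totals alone 2 rose in each and 3 and 4 fell). These shares are near those over all tested genes. Ppbp, a further CXCR2 ligand stored in platelets, rose by 3.54 in SPF and 2.82 in GF skin, from 15 to 129 and from 19 to 100 counts over the group. Pf4, another platelet chemokine that macrophages also express, rose by 0.94 and 1.32. Ackr3, a scavenging receptor for CXCL12, fell by 0.28 and by 0.83, and Cxcr4, the receptor that holds neutrophils in bone marrow, by 0.94 and by 0.64. Cxcl12 itself was not called (0.29 and -0.15). Ackr1, the endothelial receptor that carries these chemokines across vessels, was not called either (0.10 and 0.20, adjusted p = 0.47 and 0.17).

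The list of inducers of these ligands also holds receptors and regulators, among them the inhibitor gene Nfkbia. A rise in it is thus not a rise of inducers alone. Of its 15 tested genes, 9 rose and 1 fell in SPF skin (6 and 5 on library totals alone). In GF skin 10 rose and 2 fell (8 and 4 on library totals alone). Il1b rose by 5.03 in SPF and 4.19 in GF skin, from 40 to 936 and from 57 to 773 counts over the group. Tnfrsf1a, the TNF receptor, rose by 0.97 and 0.67, Nfkbia, the NF-kB inhibitor, by 1.10 and 0.59, and Il17rc, an IL-17 receptor subunit, by 0.89 and 0.91. Il36g rose by 1.14 and 0.89. Il17a was not detectable at this depth, with 0 counts in 3 groups and 2 in GF MC903 libraries.

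Of the 15 tested genes of this list, 4 were higher and 2 lower in GF than in SPF skin with MC903, against 20.8% and 20.9% of all tested genes. The largest differences, picked after the values were seen, were -1.64 for Il36b (adjusted p = 1.2e-05), 1.13 for Zc3h12a, the regnase-1 gene (adjusted p = 1.1e-05), and 1.03 for Il36a (adjusted p = 0.0025). Those highest in CPM were Il17rc, which was higher by 0.56 (adjusted p = 0.0015), and Tnfrsf1a, Nfkbia and Il36g, which were not called (adjusted p = 0.26, 0.42 and 0.074). Il1b did not pass either, at -0.23 (adjusted p = 0.57).

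Of 6 tested genes for growth factors and their receptors, 5 rose and 1 fell in SPF skin (1 and 1 on library totals alone). In GF skin 1 rose and 1 fell (1 and 5 on library totals alone). The gene that rose in GF skin was Il6, with 0 counts with ethanol and 57 with MC903 over the group (adjusted p = 0.00059). In SPF skin Il6 had 3 and 77 counts (adjusted p = 0.00056). Csf3, which encodes G-CSF, was at 0 counts with ethanol in both housings and had 18 counts in SPF and 11 in GF MC903 libraries, and did not pass the filter. Csf1, the macrophage growth factor, rose by 0.73 in SPF skin and was 0.05 in GF skin (adjusted p = 0.65), and the difference between these responses was itself called (-0.68, adjusted p = 0.0046). On library totals alone Csf1 was 0.15 in SPF skin (adjusted p = 0.19) and -0.46, called lower, in GF skin (adjusted p = 0.0015). Il6ra, the IL-6 receptor, fell by 3.11 and by 2.25. Csf2ra and Csf2rb, the GM-CSF receptor chains, rose by 0.52 and 0.46 in SPF skin, where library totals alone gave -0.059 and -0.117. In GF skin they were 0.12 and 0.07, and on library totals alone -0.40 and -0.44, called lower (adjusted p = 0.03 and 0.0098).

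Other neutrophil attractants and their receptors rose in 9 of 13 tested genes and fell in 1 in each housing (8 and 7 rose and 1 fell on library totals alone). S100a9 rose by 5.79 and 5.55 and S100a8 by 5.32 and 6.08. The pair forms calprotectin, which keratinocytes and neutrophils both make. The leukotriene B4 receptor Ltb4r1 rose by 1.95 and 1.76, and Alox5ap, which helps to make leukotrienes, by 1.26 and 1.28. The enzyme gene Lta4h rose by 0.47 and 0.42, and library totals alone gave -0.105 and -0.086. Alox5, which starts this pathway, was the gene that fell, by 0.69 and by 0.49.

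Of 16 tested genes of C-type lectin and TREM signalling, 8 rose and 4 fell in SPF skin and 9 rose and 1 fell in GF skin (5 and 7, then 6 and 3, on library totals alone). The adaptor Fcer1g, through which Mincle signals, rose by 1.27 and 1.40, and Tyrobp, the adaptor of TREM1, by 0.80 and 0.86. Bcl10 rose by 0.65 and 0.74, and Malt1, its partner, fell by 0.96 and by 0.93. With MC903, 9 of these 16 genes were higher in GF than in SPF skin and 0 lower, against 20.8% and 20.9% of all tested genes, among them Fcer1g (0.55, adjusted p = 0.0021) and Bcl10 (0.37, adjusted p = 0.0016). With ethanol 6 were higher and 0 lower, against 11.6% and 10.3%, among them the same 2 genes (0.42 and 0.28, adjusted p = 0.022 and 0.019).

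Of 7 endothelial adhesion genes, 2 rose and 1 fell in SPF skin, and 2 rose and 2 fell in GF skin (1 and 3, then 1 and 5, on library totals alone). The shares that rose are near those over all tested genes (35% and 33.4%). Icam1, which neutrophil integrins bind, rose by 0.90 and 0.77, and Cd34 fell by 0.39 and by 0.55. Of the resistin family, the relatives of Retnlg, 2 of 3 were tested and 0 were called in either response. Retnla was higher in GF skin with both treatments, by 2.35 with ethanol (adjusted p = 0.012) and 2.28 with MC903 (adjusted p = 0.0055).

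For each of the 10 genes, the genes most alike were found by the root-mean-square difference of centred log2 CPM over the 12 libraries. For Cxcr2 these were Calm4 (0.25) and Troap (0.27). For Csf3r they were Emp3 (0.21) and Krt5 (0.21), a keratin gene on the keratinocyte list above. For Clec4d they were Fcgr1 (0.24), an Fc receptor of macrophages on the list above, and Aif1 (0.34). For Cxcl1 they were Hist1h2ah (0.49) and the basophil protease gene Prss34 (0.54), for Cxcl5 Cth (0.56) and the cystine transporter gene Slc7a11 (0.57), and for Cxcl2 Tmem130 (0.45) and Bcl3 (0.54), an NF-kB cofactor. For Cxcl3 they were Hist1h2ap (0.44) and Psors1c2 (0.45), and for Clec4e Acp7 (0.47) and 2310050C09Rik (0.48). For Retnlg they were Kcnmb4os2 (0.46) and Troap (0.48), and for Trem1 Xlr4a (0.57) and Gpr151 (0.58). None of the 10 genes was among the 2 genes most alike to another.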

How the data were processed

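Total RNA of ear skin was sequenced from TruSeq libraries on a HiSeq4000 (labels' protocols). Among the tools listed in the submitters' processing notes are HISAT2 2.1.0 and StringTie 1.3.4d, with Trimmomatic, bcl2fastq 2.20.0 and the mm10 build. How they were run, on which annotation, and whether strand was used is not given in the sources used here, and reads shared by overlapping genes cannot be told apart. The authors deposited, per the file headers, estimated counts and FPKM for each gene in each library. The counts were used for every test and the FPKM values for comparing genes.

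All 12 libraries were fitted with edgeR 4.0.16 (R 4.3.3, quasi-likelihood, TMM, filterByExpr with minimum count 10 and minimum total 15), with a coefficient per group and Benjamini-Hochberg adjustment over 16466 genes at 0.05. SE is the log2 change divided by the root of F. Every pair of replicates differed by more than sampling noise (chi-square per degree of freedom 17.5 to 44.7 in 12 pairs). Intervals of count ratios (95%) and floors (3 counts) cover counting error only. Alternatives were DESeq2 1.42.0, limma voom 3.58.1, other scalings and filters, a replicate block, 2 groups only and leaving out each library.

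The 10 genes and the lists were chosen with earlier results of these data known. All 10 genes are named. From each pathway list up to 4 genes are named by mean CPM, plus Csf3, Il17a, Il1b, Ackr1, Cxcr1, Ppbp and Ly6g. Genes named outside this rule (Cxcr4, Cybb, Prtn3, Ctsg, Mpo, Camp, Ltf, Elane, Ngp, S100a8, Alox5, Ear2, Csf1r, Cd177, Stfa2l1, Ifitm6, Chil3, Mmp8, Il6, Mrgpra2a, Mrgpra2b, Acod1, Il36a, Il36b, Zc3h12a, Ccr7, Flt3 and Epcam) were chosen after their values were seen.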

Additional observations from a re-analysis of the deposited data

How the results depend on the processing

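Of the 20 alternatives, 12 left out 1 library each. With a stricter filter (CPM of at least 1 in at least 3 libraries) only 6 of the 10 genes were tested, and those called higher numbered 5 in the SPF and 6 in the GF response. On library totals alone the genes called higher and lower numbered 3127 and 10106 in the SPF response (5755 and 6394 with TMM) and 2795 and 9697 in the GF response (5497 and 5777), and 8 and 9 of the 10 genes were called higher. Csf3r was then -0.071 in SPF skin.

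Of the 10 genes, 1 had a called smaller response in GF skin with DESeq2, and 0 to 1 without 1 library. With ethanol 0 were higher in GF skin in a fit of 2 groups only and 0 to 1 without 1 library, while all genes called higher ranged from 768 to 2121 and lower from 707 to 1860, against 1914 and 1702. The lowest of both was without GF ethanol 4. Without SPF ethanol 3 they were 1245 and 1088, and without SPF ethanol 2 the lower ones were 1074. With MC903, genes of the 10 called higher numbered 1 with no filter, 3 with DESeq2, with limma voom and with 2 groups only, and 0 to 2 without 1 library, and those lower 0 to 1.

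Some differences that were not called turned sign. With limma voom Retnlg was -0.38 between ethanol groups. Without 1 library, values between ethanol groups ranged from -0.048 to 0.97 for Cxcl1, -0.69 to 0.27 for Cxcl5, -0.35 to 0.091 for Cxcr2, -1.07 to 1.13 for Trem1 and -0.19 to 1.03 for Retnlg. Between MC903 groups they ranged from -0.51 to 0.24 for Cxcl2 and -0.14 to 0.074 for Clec4d, and between responses from -1.83 to 0.37 for Trem1 and -0.16 to 1.05 for Retnlg. The cause was not tested.

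Libraries with the same number did not deviate together in every pair. The correlations of their deviations were 0.00729, 0.0674 and 0.14 in SPF and 0.0221, -0.0225 and 0.000561 in GF skin. Between libraries of different numbers they ranged from -0.127 to 0.0603 in SPF and from -0.0642 to 0.0569 in GF skin. With 3 libraries a group this cannot show whether a number marks the same mouse. The main fit did not pair by number. With the number as a replicate block, 8 of the 10 genes were higher in SPF and 10 in GF skin. Retnlg was 1.68 in SPF skin and not called (adjusted p = 0.11).

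Depth limits the low genes most: Cxcl3, Retnlg, Trem1 and Cxcl2 had at most 11 counts in any ethanol library.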
